A study of Mus musculus with 9 samples.

Results

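The genes described here encode the machinery that copies DNA and the machinery that divides the copied chromosomes. A list of 40 such mouse genes was followed, and 38 of them had a transcript cluster of their own. A cluster is the set of probes that the array reads as 1 transcript. These are 38 of 30094 genes with their own cluster and of 65534 clusters in all. Mcm7 was not analysed here because its cluster is shared with Mir25 and Mir93, and no cluster in the annotation used here carries the symbol Ccnb1. The measured genes comprise 11 replication genes (the Mcm, Gins, Pcna and Rrm genes), 8 other S phase genes, 2 cyclins E and 17 mitosis genes.

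The tissue came from male C57BL/6 mice aged 8 weeks, named C57BL/6J in the protocols. In 3 animals the left anterior descending coronary artery was tied for 45 min and reopened for 24 h, and the left ventricle was then divided. The zones taken were called ischemia zone (IZ), border zone (BZ) and, remote from the injury, non-ischemia zone (NIZ). Each zone gave 3 samples, and each sample was run on 1 array from 100 ng of total RNA. NIZ is thus tissue of the same injured hearts, not of unoperated ones, and the samples are whole tissue rather than sorted cells. The labels number the samples of a zone from 1 to 3 without tying a number to an animal, so p-values measure the spread between these samples.

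Before a cell divides, the MCM helicase is loaded on replication origins and is started by Cdc45 and the GINS complex. Pcna then clamps the polymerases to the DNA while ribonucleotide reductase supplies the deoxynucleotides. In mitosis, cyclin-dependent kinase 1 with its cyclins, the Aurora and Polo kinases, spindle motors and kinetochore proteins condense, align and separate the chromosomes. Cardiomyocytes of the adult heart have largely left the cell cycle, whereas immune cells, endothelial cells and fibroblasts of injured myocardium can enter it. In whole tissue, fewer dividing cells and less of these RNAs per cell cannot be told apart.

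Genes of the S phase are known targets of E2F factors, and many mitosis genes are regulated through a cell cycle homology region (CHR) and nearby CCAAT boxes bound by NF-Y. The promoter windows of 2 replication and 2 mitosis genes with large zone differences are shown to make this difference in promoter words visible. Each window runs from 250 bases before to 50 bases after the start in RefSeq's annotation of GRCm38.p6, written 5′ to 3′ on the gene's strand. Capitals mark the words searched on both strands, which are TTTCCCGC, TTTGGCGC, TTTCGCGC and TTTGCCGC for E2F, TTTGAA and TTTAAA for the CHR, and CCAAT for NF-Y. Mcm5 lies at chr8:75109259-75109558 on the plus strand, Rrm1 at chr7:102441445-102441744 on the plus strand, Mki67 at chr7:135716330-135716629 on the minus strand and Top2a at chr11:99024140-99024439 on the minus strand.
Mcm5: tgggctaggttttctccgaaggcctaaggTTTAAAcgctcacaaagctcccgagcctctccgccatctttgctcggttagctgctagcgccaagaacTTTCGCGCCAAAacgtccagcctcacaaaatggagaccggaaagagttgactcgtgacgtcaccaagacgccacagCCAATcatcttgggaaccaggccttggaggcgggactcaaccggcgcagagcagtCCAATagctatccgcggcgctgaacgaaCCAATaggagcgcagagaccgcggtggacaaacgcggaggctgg
Rrm1: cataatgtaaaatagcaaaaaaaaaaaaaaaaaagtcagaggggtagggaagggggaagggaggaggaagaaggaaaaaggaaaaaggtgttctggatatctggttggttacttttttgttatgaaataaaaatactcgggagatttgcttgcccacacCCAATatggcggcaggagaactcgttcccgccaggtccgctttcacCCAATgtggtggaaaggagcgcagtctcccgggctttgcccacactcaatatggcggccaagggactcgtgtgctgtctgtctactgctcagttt
Mki67: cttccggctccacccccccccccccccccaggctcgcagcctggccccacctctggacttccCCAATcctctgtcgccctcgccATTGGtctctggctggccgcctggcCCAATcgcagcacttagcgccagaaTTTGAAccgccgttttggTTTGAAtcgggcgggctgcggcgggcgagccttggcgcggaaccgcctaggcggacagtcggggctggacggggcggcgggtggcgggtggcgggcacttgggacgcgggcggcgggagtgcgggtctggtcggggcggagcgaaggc
Top2a: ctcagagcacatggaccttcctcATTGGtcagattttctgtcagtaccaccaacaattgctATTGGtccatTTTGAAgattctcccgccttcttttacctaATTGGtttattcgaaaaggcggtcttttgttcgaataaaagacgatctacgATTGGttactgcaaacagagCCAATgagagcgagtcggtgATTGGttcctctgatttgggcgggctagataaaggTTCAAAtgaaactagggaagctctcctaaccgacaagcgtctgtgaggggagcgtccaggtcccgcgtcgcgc

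The Mcm5 window holds 2 E2F words that overlap, which gives the capital run TTTCGCGCCAAA, besides 1 CHR word and 3 CCAAT words. Rrm1 has 2 CCAAT words and none of the E2F or CHR words in this window. The windows of Mki67 and Top2a each hold 2 CHR words, with 3 CCAAT words in Mki67 and 6 in Top2a. Windows were given for 32 of the 40 listed genes, 35 windows in all, beside 32851 windows of 27025 genes. They include windows of Mcm7 and Ccnb1, whose levels were not analysed. A window of Mcm7 with 2 E2F words counts among the replication windows. An E2F word was found in 4 of 10 replication windows (40.0%) and in 1 of 14 mitosis windows (7.14%), against 2.26% of all windows. A CHR word was found in 3 of 10 replication windows and in 13 of 14 mitosis windows (92.9%), against 27.6% of all windows. CCAAT was present in all 10 replication windows and in 13 of 14 mitosis windows, against 37.4% of all windows. These are counts of letters and not of bound sites, and the listed genes' windows had a median GC content of 57.7% against 52.7% over all windows.

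The deposited values are log2 levels that the authors made with RMA, which brings the arrays to a common distribution. The 12 cardiomyocyte markers had mean levels from 11.42 to 11.82 over the 9 arrays. The labels name heart as the source, although 1 of their tags reads brain. Array medians lay between 4.19 and 4.23 except in BZ replicate 3, where the median was 4.29. Of the 38 genes, 36 were above their array's median on at least 3 arrays, and the others were Bub1 and Cenpe of the mitosis list. On all 9 arrays 32 genes were above it, among them 12 of the 17 mitosis genes. Top2a was above it on only 3 arrays and Kif11 on 4, in neither case on a NIZ array. For 18 genes, among them 10 of the 17 mitosis genes, the same unrounded value recurred on at least 3 arrays.

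Replication genes had higher mean levels in both injured zones than in NIZ, and no difference passed the test. All 11 were higher in IZ than in NIZ, with a median log2 difference of 0.28, and all 11 were higher in BZ, with a median of 0.21. The IZ median was 0.094 without IZ replicate 1, 0.42 without IZ replicate 3 and 0.18 without NIZ replicate 3. The BZ median was 0.056 without BZ replicate 1 and 0.36 without BZ replicate 2. Over all 65534 clusters, 40.2% were higher in IZ and 51.8% in BZ, with medians of -0.014 and 0.003. Over the 38 listed genes the counts were 33 in IZ (median 0.14) and 36 in BZ (median 0.14). The IZ and BZ differences use the same NIZ arrays and are therefore not independent of each other. In limma with Benjamini-Hochberg adjustment over all clusters, 0 of the 38 genes were called in IZ against NIZ, where 0.00% of all clusters were called. BZ against NIZ gave 0 of 38 beside 0.00% of all clusters, and the genes' adjusted p-values from limma were 0.999 or above in IZ and 0.854 or above in BZ. At an unadjusted p under 0.05 in limma, 0 of the 38 were higher in IZ, beside 1.24% of all clusters, and 2 of 38 were higher in BZ, beside 2.19% of all clusters.

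**Figure D1:**
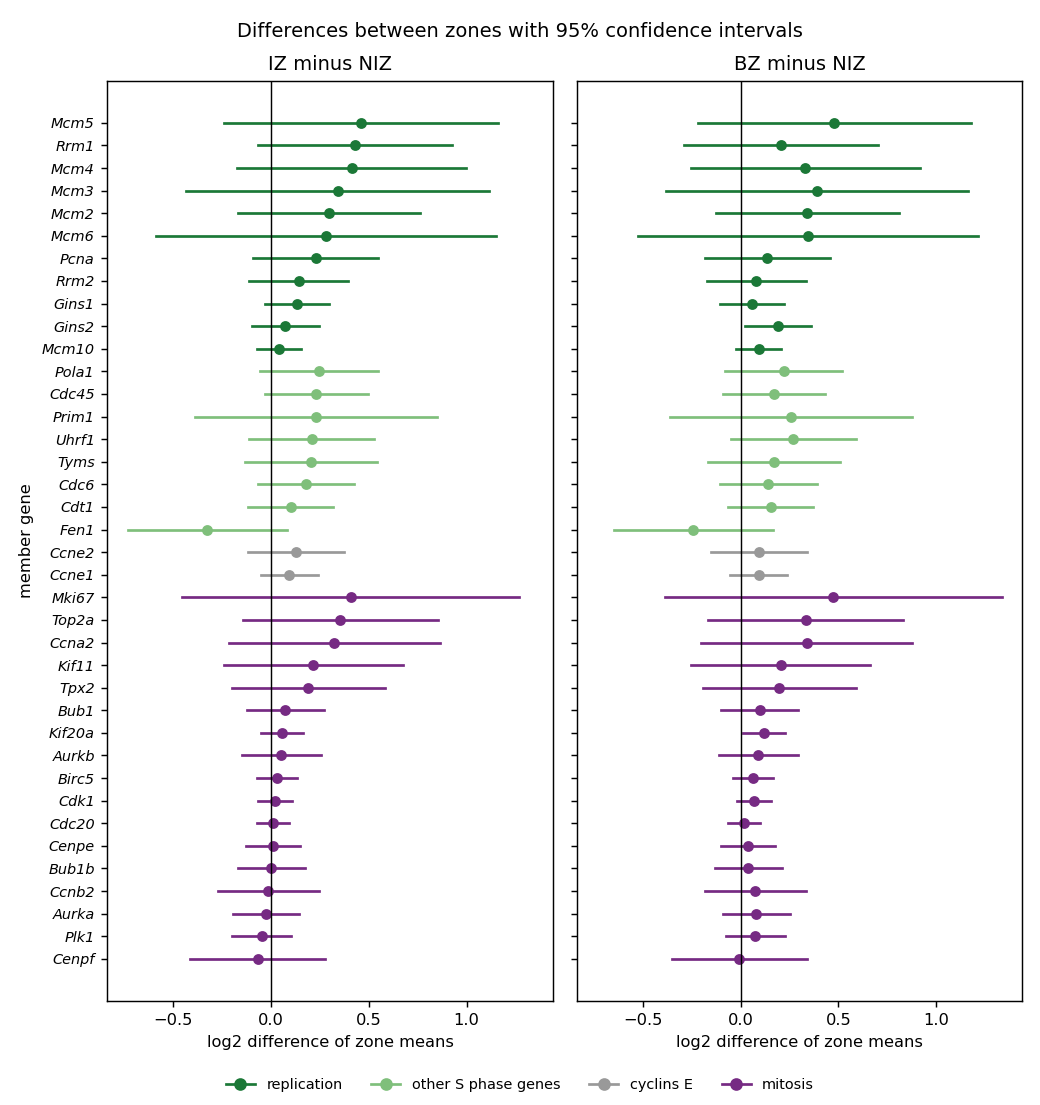
Difference of zone means for the 38 measured genes on the log2 scale (horizontal axis), IZ minus NIZ on the left and BZ minus NIZ on the right, with 95% confidence intervals from limma as bars and 1 gene per line. All 11 replication genes lie to the right of 0 in both panels, Fen1 lies to the left in both, and only the intervals of Gins2 and Kif20a in BZ exclude 0 before adjustment.

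Mcm5, a subunit of the MCM helicase, had log2 levels of 6.91, 6.08 and 5.97 in IZ replicates 1 to 3, 6.90, 6.05 and 6.07 in BZ, and 5.96, 5.78 and 5.84 in NIZ. Each injured array lay above each NIZ array, but replicate 1 of IZ and of BZ stood far above the other injured arrays. The mean was 6.32 ± 0.52 (SD, n = 3) for the IZ arrays, 6.34 ± 0.48 for BZ and 5.86 ± 0.09 for NIZ. These means give a log2 difference of 0.46 (1.37-fold, 95% CI -0.24 to 1.16) in IZ and of 0.48 (1.39-fold, 95% CI -0.22 to 1.18) in BZ. The exact two-sided permutation test gave p = 0.1 for each, the smallest value that 3 against 3 arrays allow. Without IZ replicate 1 the IZ difference was 0.16, and without BZ replicate 1 the BZ difference was 0.20.

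For Mcm4 and Mcm2 too, replicate 1 of IZ and of BZ gave the highest levels. Mcm4 had log2 levels of 7.16, 6.63 and 6.49 in IZ, 7.22, 6.46 and 6.35 in BZ, and 6.41, 6.29 and 6.33 in NIZ. All IZ arrays exceeded all NIZ arrays, whereas BZ replicate 3 fell within the NIZ range. Mcm4 differed on the log2 scale by 0.41 in IZ (95% CI -0.17 to 1.00) and by 0.33 in BZ (95% CI -0.26 to 0.92). Mcm2 levels were 7.21, 6.66 and 6.55 in IZ, 7.20, 6.61 and 6.75 in BZ, and 6.49, 6.48 and 6.56 in NIZ. For this subunit BZ did not overlap NIZ, IZ replicate 3 did, and the log2 differences were 0.30 in IZ and 0.34 in BZ. Among the 38 genes, every IZ array lay above every NIZ array for 3 (Mcm4, Mcm5 and Kif20a), beside 1.78% of all clusters. Every BZ array lay above every NIZ array for 6 (Mcm2, Mcm5, Gins2, Uhrf1, Top2a and Kif20a), beside 2.51% of all clusters, and no gene lay wholly below NIZ in either zone.

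Mcm3 and Mcm6 also peaked in replicate 1 of the injured zones, but their NIZ arrays were further apart. Mcm3 levels were 7.33, 6.57 and 6.29 in IZ, 7.38, 6.40 and 6.57 in BZ, and 6.65, 6.40 and 6.12 in NIZ. Mcm6 levels were 7.43, 6.59 and 6.21 in IZ, 7.46, 6.46 and 6.50 in BZ, and 6.77, 6.43 and 6.20 in NIZ. In both genes NIZ replicate 1 lay above replicates 2 and 3 of IZ and of BZ. The log2 differences were 0.34 in IZ and 0.39 in BZ for Mcm3. For Mcm6 they were 0.28 and 0.35, and without IZ replicate 1 the IZ difference of Mcm6 was -0.063. Mcm10, which helps to start the loaded helicase, stayed between 4.44 and 4.60 on all arrays, and IZ exceeded NIZ by 0.039 and BZ exceeded it by 0.092.

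**Figure D2:**
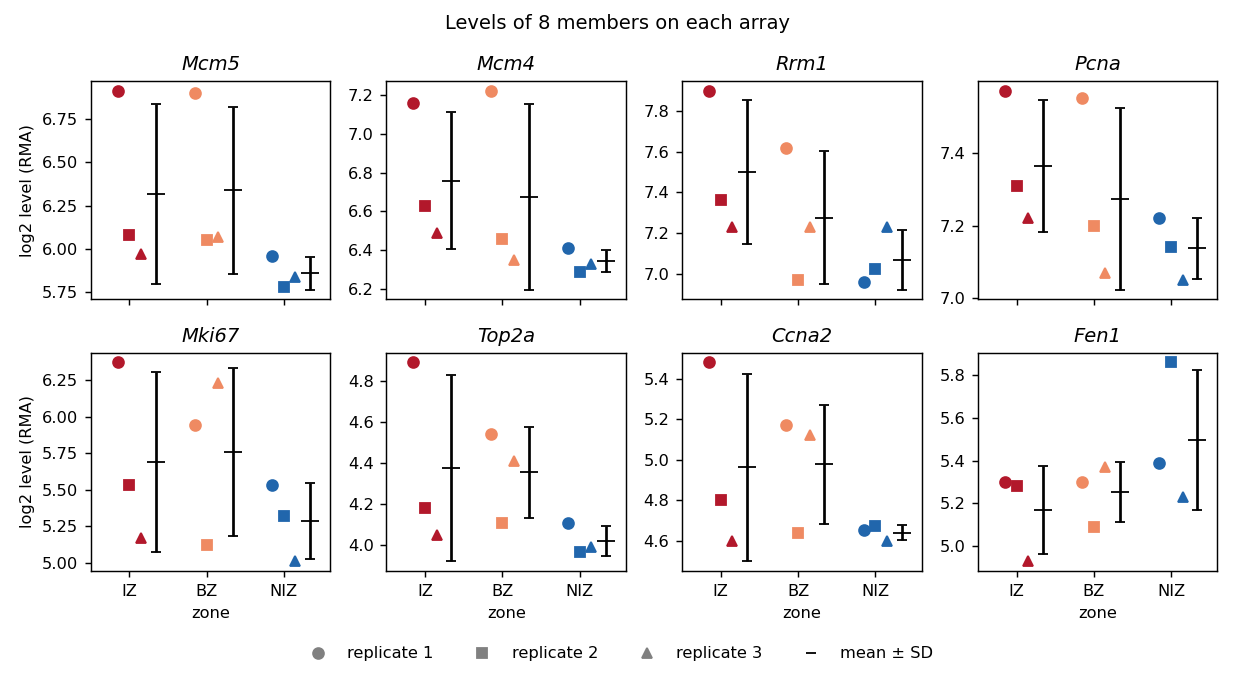
Log2 level (RMA, vertical axis, a separate range for each gene) of 8 genes on each of the 9 arrays, grouped by zone, with replicate numbers as symbols and the zone mean ± SD as bars. Replicate 1 of IZ and of BZ stands above the other arrays for Mcm5, Mcm4, Rrm1 and Pcna, BZ replicate 3 is also high for Mki67, Top2a and Ccna2, and Fen1 is highest in NIZ replicate 2.

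Rrm1, the large subunit of ribonucleotide reductase, had log2 levels of 7.90, 7.36 and 7.23 in IZ, 7.62, 6.97 and 7.23 in BZ, and 6.96, 7.02 and 7.23 in NIZ. Its lowest IZ array thus reached only the highest NIZ array, and the IZ difference was 0.43 (1.35-fold, 95% CI -0.07 to 0.93). The BZ difference of 0.21 was -0.023 without replicate 1 of all zones. Rrm2, the small subunit, had an IZ difference of 0.14 and a BZ difference of 0.081. Pcna, the sliding clamp, had levels of 7.57, 7.31 and 7.22 in IZ, 7.55, 7.20 and 7.07 in BZ, and 7.22, 7.14 and 7.05 in NIZ. The zones of Pcna overlapped, and its differences were 0.23 in IZ and 0.14 in BZ, the latter -0.002 without BZ replicate 1.

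Gins2, a subunit of the GINS complex, was 1 of the 2 listed genes with an unadjusted p under 0.05 in BZ. Its log2 levels were 5.80, 5.72 and 5.60 in IZ, 5.91, 5.73 and 5.84 in BZ, and 5.68, 5.54 and 5.69 in NIZ. All BZ arrays were above all NIZ arrays, while IZ replicate 3 was below 2 NIZ arrays. The BZ difference was 0.19 (1.14-fold, 95% CI 0.02 to 0.36), and limma gave an adjusted p = 0.854 (unadjusted p = 0.033 in limma, exact permutation p = 0.1). Gins1, a second subunit of the complex, differed by 0.13 in IZ and by 0.060 in BZ, and its NIZ replicate 1 (5.28) was the lowest array.

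Of the 8 other S phase genes, 7 were higher in IZ and 7 in BZ than in NIZ, with medians of 0.21 and 0.17. The 7 differences lay between 0.099 and 0.24 in IZ and between 0.14 and 0.27 in BZ. They belong to Tyms (thymidylate synthase), Cdc6 and Cdt1 (helicase loading), Cdc45 (the active helicase), Pola1 and Prim1 (polymerase alpha and its primase) and Uhrf1 (maintenance of DNA methylation). Their highest array was IZ replicate 1 for 5 genes and BZ replicate 1 for Cdt1 and Prim1. Fen1, the endonuclease that trims Okazaki fragments, ran the other way. Its log2 levels were 5.30, 5.28 and 4.93 in IZ, 5.30, 5.09 and 5.37 in BZ, and 5.39, 5.86 and 5.23 in NIZ. The zones overlapped, the differences were -0.33 in IZ (95% CI -0.73 to 0.08) and -0.24 in BZ (95% CI -0.65 to 0.17), and NIZ replicate 2 was the highest of the 9 arrays. Ccne1 and Ccne2, the cyclins that drive entry into S phase, differed by 0.092 and 0.13 in IZ and by 0.093 each in BZ, and Ccne1 had 1 value (4.82) on 6 arrays.

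Mitosis genes stood closer to their NIZ levels, but they were also the dimmer class. Their mean levels lay between 4.57 and 4.90 over the arrays, and those of replication genes between 6.02 and 6.65. Array medians lay between 4.19 and 4.29. Dim clusters understate differences, so the 2 classes are not compared on equal terms. In IZ, 13 of 17 mitosis genes were higher than in NIZ (median log2 difference 0.029), and in BZ 16 of 17 (median 0.080). The larger differences came from a few genes, Mki67, Top2a, Ccna2, Kif11 and Tpx2, whose differences were between 0.19 and 0.48 in both zones. The remaining 12 lay between -0.068 and 0.071 in IZ and between -0.008 and 0.12 in BZ. Without IZ replicate 1 the IZ median was -0.002, without IZ replicate 3 it was 0.056, and without BZ replicate 3 the BZ median was 0.034. Leaving out BZ replicate 2 gave a BZ median of 0.15, and weighting the arrays by quality gave 0.017.

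Mki67, which encodes the proliferation marker Ki-67, had log2 levels of 6.37, 5.53 and 5.17 in IZ, 5.94, 5.12 and 6.23 in BZ, and 5.53, 5.32 and 5.01 in NIZ. IZ replicate 1, BZ replicate 3 and BZ replicate 1 were the high arrays, and the other injured arrays lay at or within the NIZ range. The difference of 0.41 in IZ (1.33-fold, 95% CI -0.46 to 1.27) and that of 0.48 in BZ (1.39-fold, 95% CI -0.39 to 1.34) were smaller than the SD of 0.62 and 0.58 within those zones.

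Top2a, the topoisomerase that untangles sister chromatids, had levels of 4.89, 4.18 and 4.05 in IZ, 4.54, 4.11 and 4.41 in BZ, and 4.11, 3.97 and 3.99 in NIZ. The lowest BZ array was just above the highest NIZ array, and both print as 4.11. Top2a differed by 0.35 in IZ and by 0.33 in BZ. Cyclin A2 (Ccna2), which acts in S phase and at entry into mitosis, had levels of 5.48, 4.80 and 4.60 in IZ, 5.17, 4.64 and 5.12 in BZ, and 4.65, 4.67 and 4.60 in NIZ. Its differences were 0.32 in IZ and 0.34 in BZ, carried by IZ replicate 1 and BZ replicates 1 and 3. Kif11, a spindle motor, had levels of 4.71, 4.20 and 4.03 in IZ, 4.28, 4.06 and 4.57 in BZ, and 4.20, 4.16 and 3.93 in NIZ. Zones overlapped in both comparisons, and the differences were 0.22 in IZ and 0.20 in BZ, the latter -0.016 without replicate 3 of all zones.

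Kif20a, a kinesin of late mitosis, had small differences with no overlap. The levels were 4.96 on all 3 IZ arrays, 5.01, 4.96 and 5.10 in BZ, and 4.91, 4.85 and 4.96 in NIZ. NIZ replicate 3 and 4 of the injured arrays coincide at 2 decimals, so the absence of overlap rests on later decimals. The BZ difference was 0.12 (1.09-fold, 95% CI 0.01 to 0.23) and limma gave an adjusted p = 0.854 (unadjusted p = 0.033 in limma, exact permutation p = 0.1). Several central mitosis genes had small IZ differences, of 0.020 for Cdk1, 0.010 for Cdc20 (an activator of the anaphase-promoting complex), -0.049 for Plk1 and -0.026 for Aurka (mitotic kinases), and 0.029 for Birc5 (survivin). Aurka and Ccnb2 (cyclin B2) had a single value on all NIZ arrays, 5.31 and 5.04, and reached 5.57 and 5.38 in BZ replicate 3.

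Between IZ and BZ the mean differences were small, from -0.12 to 0.22. Replication genes were higher in IZ for 5 of 11 (median log2 difference -0.019) and mitosis genes for 2 of 17 (median -0.038), beside 40.4% of all clusters with a median of -0.017. Of the 38 genes, 12 were higher in IZ, which became 20 with each array centred on its median and 30 with arrays weighted by quality. The count was 2 without IZ replicate 1, 21 without IZ replicate 2, 27 without IZ replicate 3, 22 without BZ replicate 1 and 6 without BZ replicate 2. In limma 0 of 38 were called after adjustment (0.00% of all clusters) and 0 of 38 were higher at an unadjusted p under 0.05 (1.26% of all clusters). No gene separated the IZ arrays from the BZ arrays. The intervals reached from -0.93 to 0.80 for Mki67 and from -0.72 to 0.68 for Mcm5.

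The listed genes varied more among the arrays of an injured zone than among those of NIZ. The within-zone SD exceeded that of NIZ for 31 of the 38 genes in IZ (81.6%, against 41.3% of all clusters) and for 32 in BZ (84.2%, against 56.2%). For the replication genes the median SD was 0.35 in IZ, 0.31 in BZ and 0.088 in NIZ. IZ replicate 1 was above IZ replicate 2 for all 11 replication genes (median 0.53) and BZ replicate 1 above BZ replicate 2 for all 11 (median 0.60). These shares were 41.6% and 39.1% over all clusters.

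**Figure D3:**
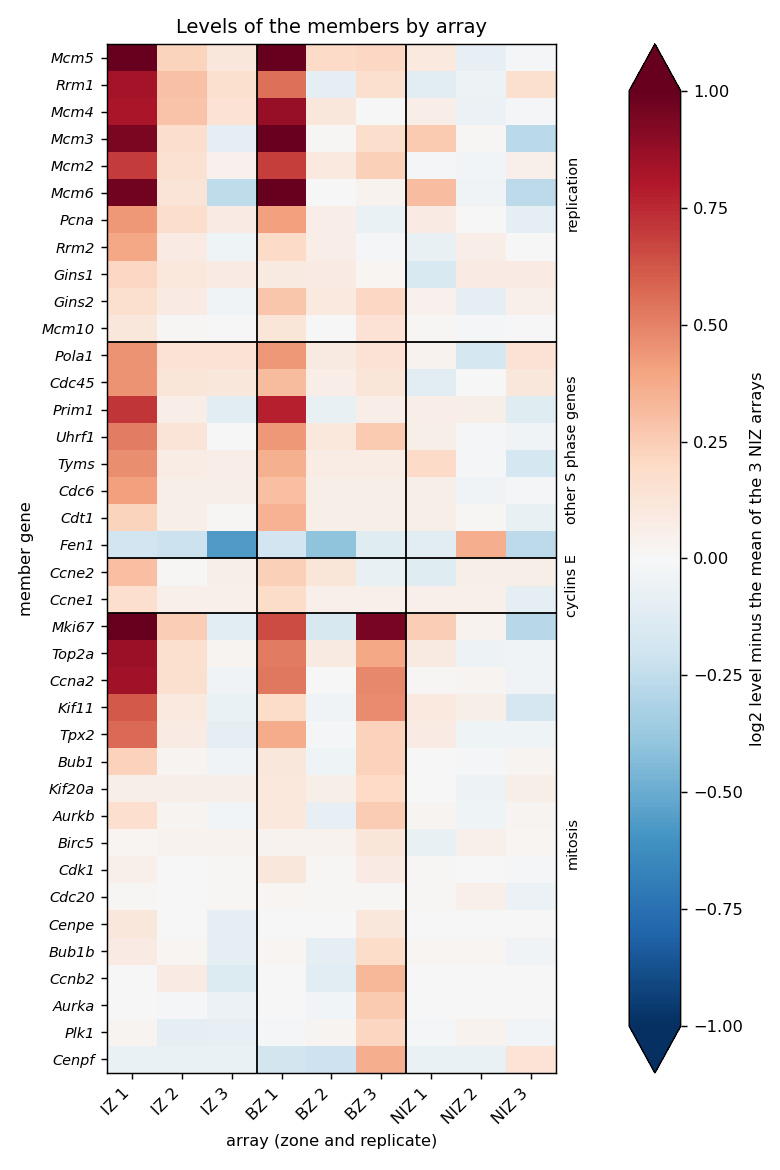
Log2 level of each measured gene on each array minus the gene's mean over the 3 NIZ arrays (colour scale, values beyond 1 share the end colour), with genes as rows by class and arrays as columns by zone. IZ replicate 1 is high in rows of every class, BZ replicate 1 mainly in the replication and other S phase rows, and BZ replicate 3 mainly in the mitosis rows.

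Replication and mitosis genes shared 1 high array and differed in another. The mean of the 11 replication genes, each centred on its mean over the 9 arrays, was 0.43, -0.010 and -0.15 in IZ replicates 1 to 3, 0.40, -0.11 and -0.065 in BZ, and -0.12, -0.19 and -0.19 in NIZ. For the 17 mitosis genes it was 0.20, -0.028 and -0.12 in IZ, 0.075, -0.11 and 0.21 in BZ, and -0.051, -0.076 and -0.10 in NIZ. Both groups were thus high in IZ replicate 1, replication genes also in BZ replicate 1 and mitosis genes also in BZ replicate 3. IZ replicate 1 and BZ replicate 3 were nearly level for the mitosis genes as deposited, but IZ replicate 1 was above after quantile normalization (0.23 against 0.14) and after median centring (0.23 against 0.14). The highest of the 9 arrays was IZ replicate 1 for 6 replication genes, BZ replicate 1 for 4 and BZ replicate 3 for 1 (Mcm10). Among mitosis genes it was BZ replicate 3 for 8, IZ replicate 1 for 7, BZ replicate 1 for Cdk1 and NIZ replicate 2 for Cdc20. The share of all clusters highest on each array was not counted, and BZ replicate 3 had the highest array median (4.29).

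Within BZ, replicates 1 and 3 differed between the classes as deposited. BZ replicate 1 was above BZ replicate 3 for 10 of 11 replication genes (90.9%, median 0.46) and for 5 of 17 mitosis genes (29.4%, median -0.11). Over all clusters 32.5% were higher in replicate 1 (median -0.047), so the mitosis share lay near that of all clusters. BZ replicate 3 was above BZ replicate 2 for 16 of 17 mitosis genes (median 0.27), beside 56.1% of all clusters (median 0.023). The mean of the replication genes minus that of the mitosis genes was 0.24, 0.018 and -0.029 in IZ, 0.33, -0.004 and -0.28 in BZ, and -0.070, -0.11 and -0.090 in NIZ. As zone means the excess of replication over mitosis genes relative to NIZ was 0.17 in IZ and 0.11 in BZ, with the mitosis genes being the dimmer class. Without BZ replicate 1 the BZ excess was -0.050, without BZ replicate 3 it was 0.25, and without IZ replicate 1 the IZ excess was 0.085. The mitosis mean of BZ replicate 3 exceeded that of BZ replicate 1 by less after rescaling, with 0.14 against 0.10 after quantile normalization and the same after median centring. The replication means of BZ replicates 1 and 3 remained apart, at 0.39 and -0.079 after quantile normalization. BZ replicate 3 had the lowest quality weight in limma of the 9 arrays (0.30) besides the highest array median. A score over genes carries no test here.

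**Figure D4:**
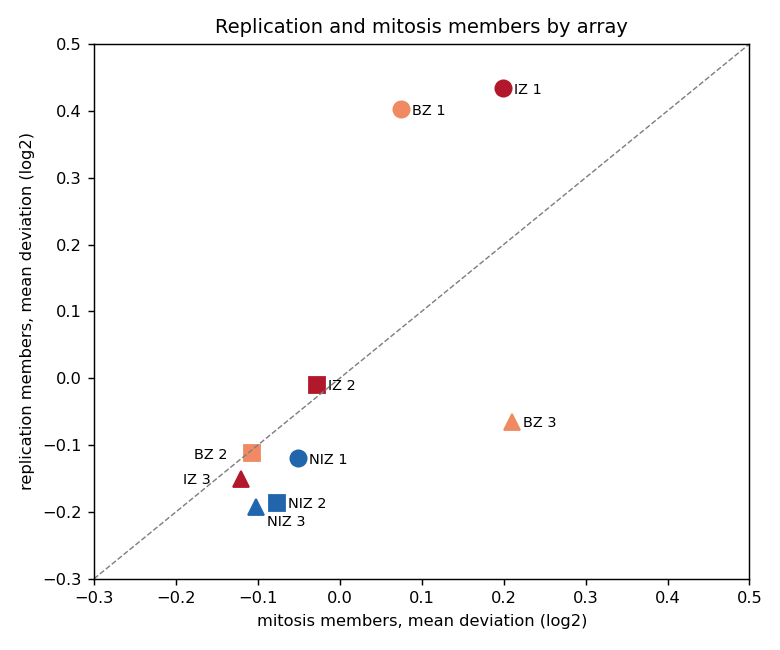
Mean deviation of the 11 replication genes (vertical axis, log2) against that of the 17 mitosis genes (horizontal axis, log2) on each array, with colour for zone, symbols for replicate number and a dashed line of equality. BZ replicate 1 lies above the line at 0.40 against 0.075, BZ replicate 3 below it at -0.065 against 0.21, and the 3 NIZ arrays lie together.

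Arrays of BZ and NIZ with the same number deviated together over all clusters and were therefore also compared number by number. Between BZ and NIZ of number 1, all 11 replication genes were higher in BZ, with a median log2 difference of 0.67. Numbers 2 and 3 gave 7 of 11 (median 0.032) and 8 of 11 (median 0.14). The mitosis genes were higher in BZ for 12 of 17 with number 1 (median 0.078), 4 of 17 with number 2 (median -0.030) and 17 of 17 with number 3 (median 0.23). On the deposited scale the largest median of the replication genes was thus in number 1 and that of the mitosis genes in number 3. The shares over all clusters were not counted for these pairs, and BZ replicate 3 had the highest array median (4.29).

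From a list of further cell cycle genes, 113 were measured, and 80 of them were higher in IZ (median log2 difference 0.021) and 91 in BZ (median 0.050). Of 35 further replication genes, 29 were higher in IZ and 28 in BZ, and of 49 further mitosis genes 35 and 45, with medians between 0.019 and 0.078. Regulators of G1 were higher for 9 of 15 in IZ and 10 of 15 in BZ, and cell cycle transcription factors for 7 and 8 of 14. No further gene passed limma after adjustment, and 2 in IZ (Rbl1 and the cyclin Ccnd2) and 1 in BZ (Pold2, a polymerase delta subunit) had an unadjusted p under 0.05, all higher, beside 1.24% and 2.19% of all clusters. The 3 with the highest IZ differences were Rbl1 (0.43, 95% CI 0.042 to 0.82) and Rbl2 (0.37), both pocket proteins that hold E2F in check, and Dtl (0.33), a substrate receptor that targets Cdt1. Dtl levels were 4.40, 3.82 and 3.75 in IZ against 3.61, 3.64 and 3.74 in NIZ. The zones did not overlap, but IZ replicate 3 exceeded NIZ replicate 3 by only 0.012. Dtl was above its array's median on only 2 arrays. Every IZ array lay above every NIZ array for 1.78% of all clusters, and such genes were not counted over this list.

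The 3 lowest in IZ were Cdkn1a (-0.42), the inhibitor p21, Myc (-0.30), a growth factor response gene, and Tfdp2 (-0.21), a partner of E2F. Cdkn1a levels were 9.91, 9.65 and 10.10 in IZ, 10.73, 10.63 and 8.58 in BZ, and 11.06, 10.71 and 9.14 in NIZ. Replicate 3 of BZ and of NIZ was low for this inhibitor, and the 95% CI of the IZ difference ran from -1.99 to 1.14. Myc showed the same arrays low, with 7.18 in BZ replicate 3 and 7.02 in NIZ replicate 3 against 9.00 in NIZ replicate 1.

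Markers of other cell types moved with some of these arrays, and their part in the results was not tested. The 12 monocyte and macrophage markers, centred and averaged in the same way, stood at 0.40, 0.28 and -0.11 in IZ, 0.57, 0.003 and -0.24 in BZ, and -0.027, -0.47 and -0.41 in NIZ, with all 12 higher in IZ and 11 in BZ than in NIZ. As a mean they were high on IZ replicate 1 and BZ replicate 1, the arrays on which the replication genes were high. Their mean was also high on IZ replicate 2 (0.28), where the replication genes were at -0.010. The markers were not uniform. Adgre1 stood at 8.76, 8.69 and 7.41 in IZ, BZ and NIZ replicate 1, whereas Cd14 stood at 8.16, 9.27 and 9.04. Itgam stood at 9.92, 10.77 and 10.44 there, and C1qc had its lowest BZ level in BZ replicate 1 (8.19). The 10 lymphocyte markers stood at 0.30, 0.12 and -0.14 in IZ, 0.024, -0.026 and 0.17 in BZ, and -0.12, -0.23 and -0.11 in NIZ. As deposited, IZ replicate 1 and BZ replicate 3 were highest, as for the mitosis genes. BZ replicate 3 had the highest array median (4.29), and neutrophil precursor and erythroid markers were also raised there (0.14 and 0.13). The lymphocyte means were not rescaled. Against NIZ, 8 of the 10 lymphocyte markers were higher in IZ and 9 in BZ. The lymphocyte list was not uniform. In BZ the T cell gene Cd3e had 5.39, 5.41 and 5.91, and Nkg7 of cytotoxic cells had 6.22, 6.14 and 6.56. Gzma, also of cytotoxic cells, had 5.69, 5.51 and 5.35. Klrb1c of natural killer cells had 3.59, 3.66 and 3.46, but it was not above its array's median on any array.

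Neutrophil markers followed another order. The 12 markers stood at -0.26, -0.24 and 0.45 in IZ, 1.30, 0.25 and -1.25 in BZ, and 1.13, 0.14 and -1.54 in NIZ, so they were high in NIZ replicate 1, where the replication genes were at -0.12. The 4 markers of neutrophil precursors, which divide in the bone marrow, were highest in BZ replicate 3 at 0.14 and between -0.067 and -0.003 elsewhere. These clusters were nearly flat, with 1 value on 8 arrays for Prtn3 and on 5 arrays for Mpo, Elane and Ctsg, and Ctsg was below the array median throughout. Mpo had a level of 4.81 in BZ replicate 3, the array with the highest median, and of 4.56 to 4.61 elsewhere. Erythroid markers were at 0.13 in both BZ replicate 3 and NIZ replicate 3. Alas2 stood at 8.49 in NIZ replicate 3 and at 7.13 to 8.15 elsewhere. Hemgn, Epb42 and Rhag were nearly flat, with 1 value on 8, 6 and 5 arrays, and Hemgn and Rhag were below the array median throughout. Fibroblast markers were higher for 4 of 7 in IZ and 6 of 7 in BZ, with medians of 0.37, and endothelial markers were lower for 8 of 9 in each.

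**Figure D5:**
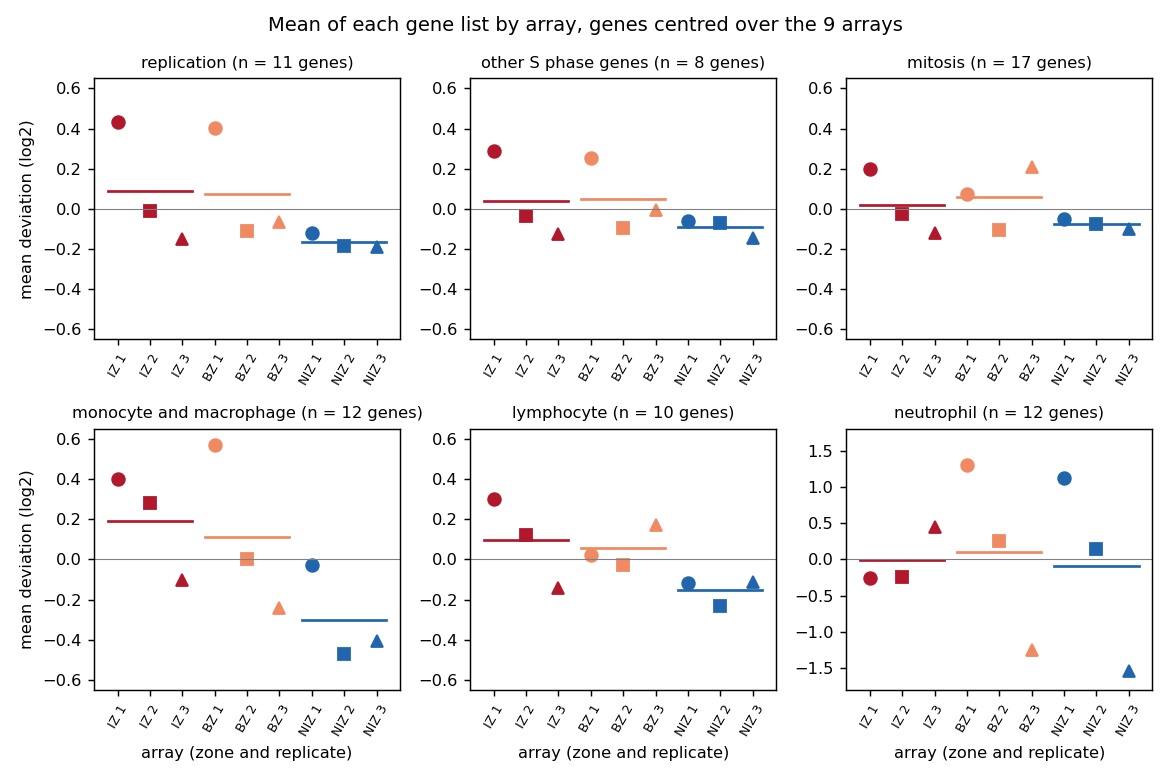
Mean deviation (log2, vertical axis) of 6 gene lists on each array (horizontal axis), each gene centred on its mean over the 9 arrays, with points for arrays and lines for zone means. The neutrophil panel has a wider axis. As means on the deposited scale, replication genes and monocyte and macrophage markers are both high in IZ replicate 1 and BZ replicate 1. Mitosis genes and lymphocyte markers are high in IZ replicate 1 and in BZ replicate 3, the array with the highest median.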

How the data were processed

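RNA of 3 zones of the left ventricle was profiled on 9 single-colour GeneChip Mouse Transcriptome Assay 1.0 arrays. The authors made the deposited log2 values with RMA, which corrects the background, brings arrays to a common distribution and summarises each transcript cluster. Affymetrix Expression Console 1.0 and, beside it, Transcriptome Analysis Console 3.0 stand in the submitters' processing notes, and the genome build is not given in the sources used here. Because RMA forces the arrays to like distributions, a change common to all genes of an array would not be seen, and dim clusters understate differences.

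The deposited table has 65534 clusters and no missing value and was used as it stands. Each listed gene was taken from the cluster with that gene as its only symbol, 1 cluster per gene, and 38 of 38 lay on RefSeq's chromosome for the gene. The 3 zones were modelled on all 9 arrays without a block in R 4.3.3, using lmFit, contrasts.fit and eBayes of limma 3.58.1, with Benjamini-Hochberg adjustment over all clusters at 0.05. Single genes were also compared by exact two-sided permutation tests, which with 3 against 3 cannot go below 0.1. The fit was also run on simulated arrays with independent noise, which lack the deviations shared by arrays of the same number. The genes, the lists and the tests were chosen with earlier results of these data known. Array values are given for the 4 replication and the 4 mitosis genes with the largest difference in IZ or BZ, for those of both classes without overlap, and for Mki67, Top2a, Pcna and Mcm5. Of the further cell cycle genes, the 3 highest and the 3 lowest in IZ are named. Other genes with single values (such as Fen1, Uhrf1, Tpx2, Aurka, Ccnb2, Ccnd2 and Pold2) were chosen after their values were seen. So were the markers Adgre1, Cd14, Itgam, C1qc, Cd3e, Nkg7, Gzma, Klrb1c, Mpo, Elane, Prtn3, Ctsg, Alas2, Hemgn, Epb42 and Rhag.

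After zone means were subtracted, BZ and NIZ arrays of the same number had correlations over clusters of 0.62, 0.20 and 0.52, all above 0.1. These numbers were therefore taken as pairs in the comparison number by number. The intervals and p-values given for single genes do not use the pairs. For IZ and NIZ the correlations were 0.36, 0.079 and 0.25, and for IZ and BZ 0.36, 0.063 and 0.20. Alternatives were quantile normalization, median centring, the 33293 clusters above their array's median on at least 3 arrays, the clusters of 1 symbol, fits of 2 zones at a time, a robust variance with a trend, array weights, the methods' test, a fixed or random block for the replicate number, and leaving out each array or number. Array weights for the medians and the array means after rescaling were added after the data were seen. Arrays have no read depth, and the 3 arrays per zone limit the precision. Promoter windows were read from RefSeq's GRCm38.p6.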

Additional observations from a re-analysis of the deposited data

How the results depend on the processing

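No listed gene was called in limma under any alternative, and over 390 alternative values of 13 genes with array values the lowest adjusted p from limma was 0.532. Of these values 386 kept their direction and 4 reversed. With arrays left out, Mcm6 in IZ ranged from -0.063 (without IZ replicate 1) to 0.547, Rrm1 in BZ from -0.023 (without replicate 1) to 0.359, Pcna in BZ from -0.002 (without BZ replicate 1) to 0.239 and Kif11 in BZ from -0.016 (without replicate 3) to 0.359. With the replicate number as a block, limma called 0 clusters in each comparison, as without the block, and the pairing changed no call of a listed gene. Clusters called ran from 0 to 216 in IZ and from 0 to 173 in BZ against NIZ when arrays were left out, the highest without NIZ replicate 3 (68 and 65 without replicate 3 of all zones), and stayed 0 in IZ against BZ. The methods' test, unadjusted over clusters, called 406, 574 and 447, none of them a listed gene, and 0 with Benjamini-Hochberg adjustment. The count of listed genes higher in IZ than in BZ was 12, and became 20 with median centring, 30 with array weights and 2 to 28 with arrays left out. The cause was not tested.

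The medians over the 38 genes ranged with arrays left out from 0.034 to 0.20 in IZ and from 0.080 to 0.18 in BZ, the lowest without replicate 1 of the injured zone. For replication genes they ranged from 0.089 to 0.42 in IZ and from 0.056 to 0.36 in BZ, and for mitosis genes from -0.002 to 0.059 and from 0.022 to 0.15. With array weights the BZ median over all 38 was 0.060. As each gene has 1 cluster, an average over several clusters could not be run. With 3 arrays per zone, the intervals of Mcm5 and Mki67 include both no difference and more than a doubling, and signal against background was not used here.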
